A study of Mus musculus with 20 samples.

Results

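The liver makes most of the complement and clotting proteins of blood plasma, and 40 of their genes were followed here through mouse livers and liver tumours. The genes were listed by symbol and not by their counts, 20 of them for complement and 20 for coagulation, kinins and fibrinolysis. All 40 were found among the 55359 gene identifiers counted, and all 40 are among the 14428 genes that passed the filter on low counts. Together they took between 2.95 and 5.53% of the counts of a library.

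Complement is a chain of plasma proteases and binding proteins that marks microbes and dying cells. It is started by antibody (the classical pathway, with C1r, C1s, C2 and C4), by sugar-binding lectins (the lectin pathway, with the mannose-binding lectins and their MASP proteases) or by its own slow turnover (the alternative pathway, with factor B). All routes meet at C3 and end in a pore built from C5 to C9. Coagulation is a parallel chain of proteases that turns prothrombin into thrombin, and thrombin turns fibrinogen into fibrin. Antithrombin, heparin cofactor II and the protein C system restrain thrombin, plasmin dissolves the clot, and antiplasmin restrains plasmin. Hepatocytes secrete nearly all of these proteins, and fibrinogen and C3 are known as acute phase proteins, whose synthesis rises when interleukin 6 reaches the liver.

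The mice were male, wild type and 35 weeks old, of a strain that the labels spell C56BL/6. The protocol paints neonates, on postnatal day 4 to 5, with 50 µL of 0.5% DMBA (7,12-dimethylbenz(a)anthracene, a chemical carcinogen) in acetone, and it describes this before the litters were given their diets, so that DMBA is taken as common to every group. There were 5 groups, with 4 libraries in each. The first was liver of mice fed the normal diet, with 12 kcal% as fat, without exercise; the other 4 came from mice fed the high-fat diet, with 60 kcal% as fat, and were the non-tumour liver and the tumours of a non-exercised and an exercised arm. Exercised mice ran on a treadmill, from 20 weeks of age, for 5 training weeks starting at 10 m/min; over the last 10 weeks the belt ran at 18 m/min, with daily runs of 20 min and 5 runs weekly. Livers of both arms were taken within 2 h of the last run, and the obese mice used weighed over 45 g. An exercised normal-diet group and tumours of normal-diet mice were not analysed here. Each mouse number within an arm labels 1 non-tumour and 1 tumour piece. Whether the tumour pieces were free of surrounding liver is not given in the sources used here. The labels do not say whether libraries of a group came from separate cages or days, so the p-values reflect only how far these samples scatter.

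Total counts lay between 16471378 and 20271948 per library. Libraries of a group correlated at 0.934 to 0.99 (Pearson's r of log2 CPM across genes). The 8 hepatocyte markers fixed to check the tissue were present in every group, with sums of 52850 to 91277 CPM (read counts normalised to library size, here after TMM scaling) in the 12 non-tumour libraries and of 96900 to 217680 CPM in the 8 tumour libraries. Alb (albumin) dominates these sums, at a mean of 87322 CPM, and more of the markers were lower than higher in tumours, as given below. Marker sums of T and NK cells, B and plasma cells, neutrophils and platelets stayed between 1.74 and 40.6 CPM, and Mzb1 and Ly6g, markers of plasma cells and neutrophils, were at 0 in all normal-diet libraries.

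On the normal diet the 40 genes ranged from 3.04 to 2465 CPM per kb of transcript. The fibrinogen genes led, Fgg with 2465 ± 699 CPM per kb (mean ± SD, n = 4), Fga with 2157 ± 822 and Fgb with 1558 ± 496. C3 followed at 1375 ± 258 CPM per kb, and each of these 4 overlapped its neighbour in this order within 1 SD. Vtn, the gene of vitronectin, which blocks insertion of the complement pore and binds to matrix, stood at 958 ± 102 CPM per kb and Plg, the gene of plasminogen, at 629 ± 41.3. At the other end stood Pros1 (protein S, the cofactor of protein C) at 16.4 ± 1.91 and Masp1 at 15.9 ± 0.986 CPM per kb, which did not differ beyond their spread. C2 at 9.26 ± 0.757 and Cfb (factor B) at 3.04 ± 0.325 CPM per kb came last, but 42.8% and 79.5% of their exon bases, and 43.2% of those of Klkb1, also belong to another gene model on the same strand, so these levels are too low by an unknown amount. Reads of near-identical copies could not be assigned to one of them, which makes levels of C4b (copy C4a), C1ra (C1rb), C1s1 (C1s2), Kng1 and Kng2 uncertain.

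**Figure D1:**
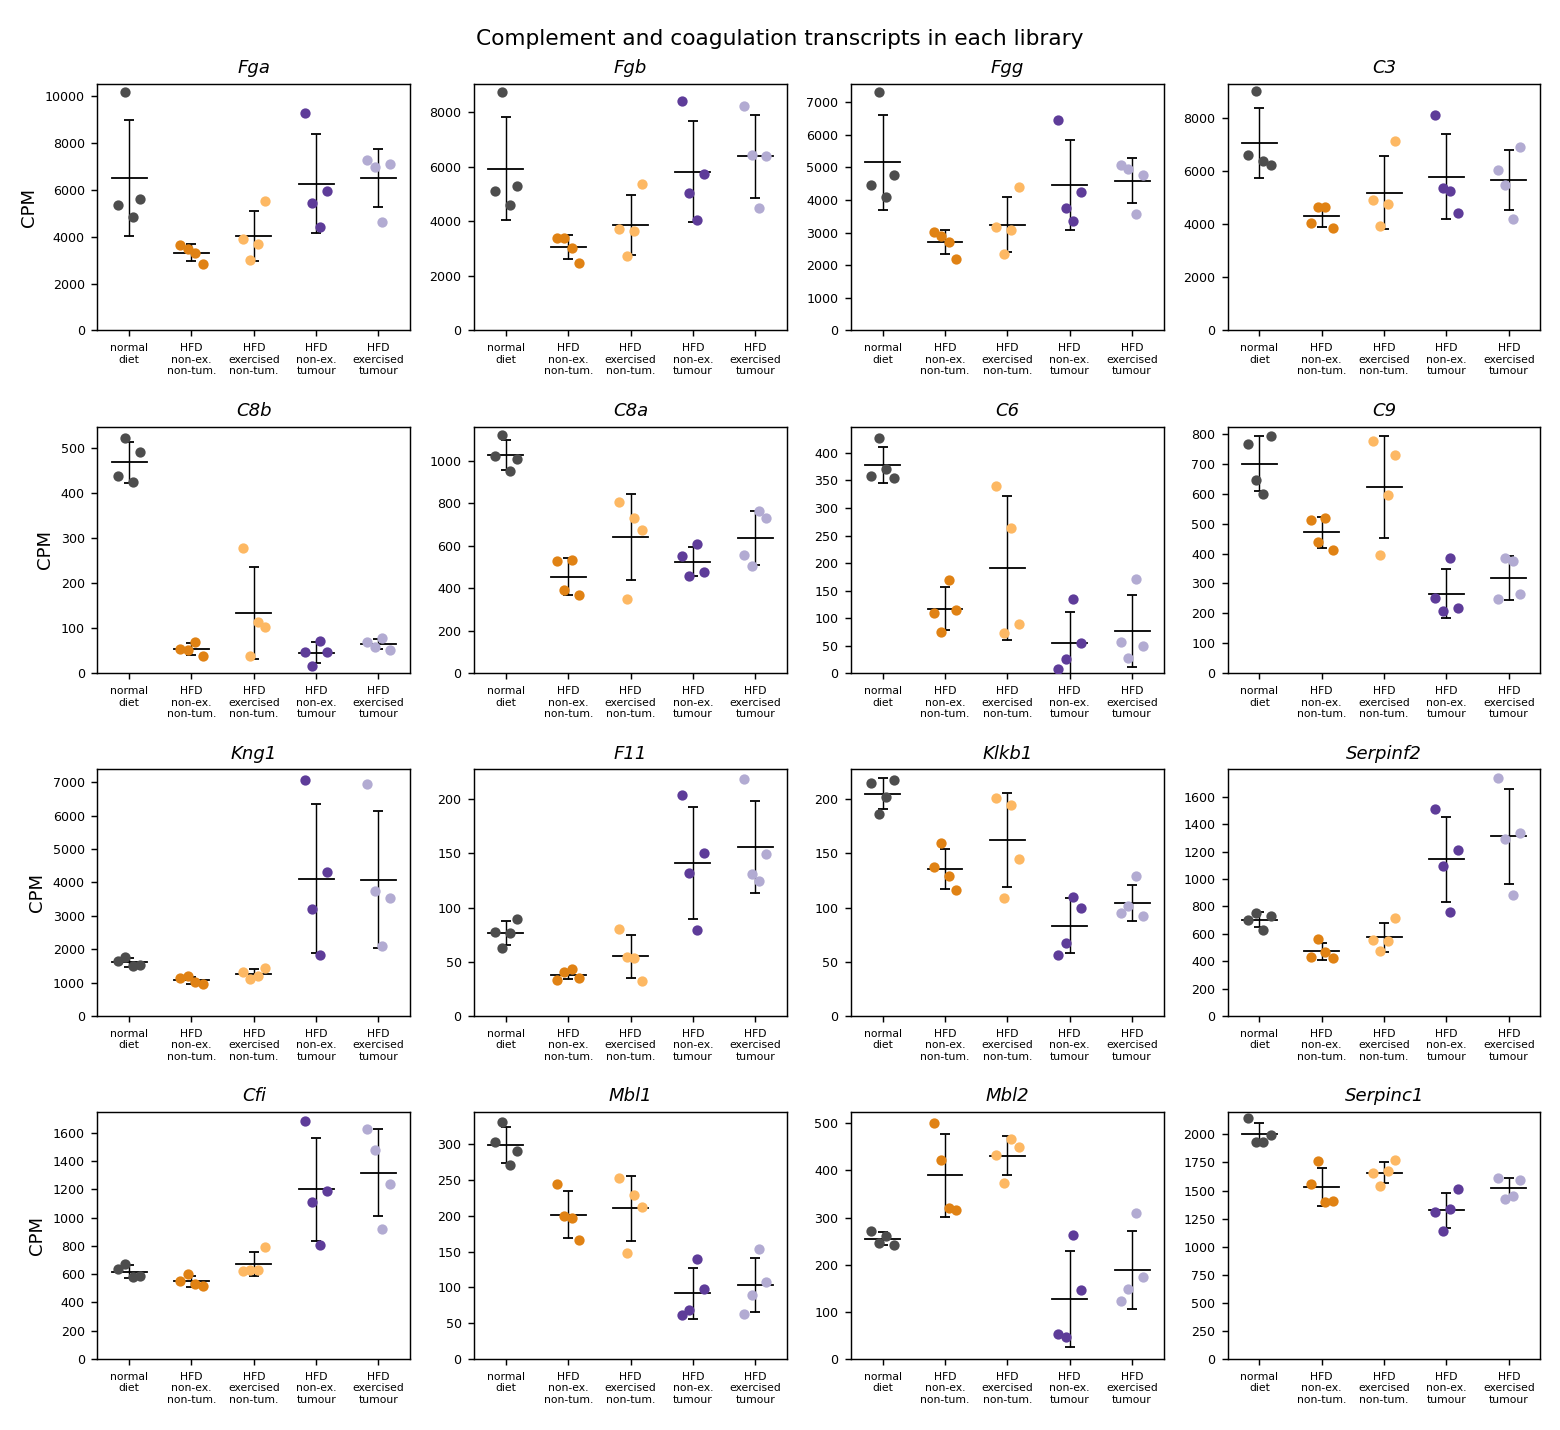
Levels of 16 of the 40 genes in CPM (TMM-scaled) in each library (points) with the mean and SD of each group of 4 (bars), by diet, exercise arm and tissue piece. C8b falls from 426 to 523 CPM on the normal diet to at most 70.8 in non-tumour liver of non-exercised mice on the high-fat diet, and Kng1 lies at or above 1825 CPM in every tumour and at or below 1769 in every other library.

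The first comparison set non-tumour liver of non-exercised mice on the high-fat diet against liver of normal-diet mice. The high-fat mice also gave the tumour pieces, and the body weight and sampling window stated above are given for the high-fat mice alone. An effect of the diet therefore cannot be told apart here from one of bearing a tumour, of that choice of mice or of sampling. Of the 40 genes, 20 were lower on the high-fat diet and 0 were higher at an adjusted p under 0.05 (edgeR's quasi-likelihood test, Benjamini-Hochberg adjustment over all 14428 genes), against a background of 11.9% of all genes lower and 14% higher. Among the 39 genes of the list that averaged 20 CPM or more the count was again 20, where 20% of all 5860 genes at that level were lower and 8.92% higher. No gene of the list was higher at an unadjusted p under 0.05 either (20.9% of all genes were). DESeq2 called 23 of the list lower and 0 higher, and 2069 lower and 2187 higher of all 14428 genes. The median log2 fold change of the list was -0.44, beside 0.01 over all genes, and 35 of 40 were negative (48.6% of all genes). By role, 3 of 3 fibrinogen genes, 2 of 2 fibrinolysis genes, 5 of 8 clotting factor genes, 2 of 4 anticoagulant genes and 1 of 3 kallikrein-kinin genes fell. In complement, 3 of 8 genes of the classical and lectin pathways, 2 of 6 terminal genes, 1 of C3 and Cfb and 1 of 4 inhibitor genes fell. In bulk tissue, fewer cells of a type and less RNA per cell cannot be told apart.

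Terminal complement held the deepest fall. C8b, which encodes the beta chain of C8, a subunit of the pore, had 438, 523, 426 and 491 CPM on the normal diet and 54.4, 52.5, 70.8 and 37.9 CPM in non-tumour liver of non-exercised mice on the high-fat diet. The groups lay far apart, and the fitted fall was 8.71-fold (log2 fold change -3.12 ± 0.47 SE, adjusted p = 0.000356). Its neighbour C8a, for the alpha chain, read 1024, 1123, 953 and 1009 CPM against 529, 392, 534 and 367 CPM (-1.17 ± 0.21, adjusted p = 0.000909). C8g, for the gamma chain, was not called (-0.22 ± 0.13, adjusted p = 0.232), with 335 to 405 CPM against 257 to 382. The 3 chains of one protein therefore differed in size of change, and the ratio of C8b to C8a per unit length went from 0.652 ± 0.036 to 0.169 ± 0.025 (SD, n = 4 each), a ratio chosen after its values were seen and not tested. C8b and C8a lie 11.1 kb apart on chromosome 4, C8b at 104623514 to 104661745 on the plus strand and C8a at 104672876 to 104733595 on the minus strand (GRCm39).

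C6, another pore subunit, ran from 355 to 427 CPM on the normal diet and from 74.7 to 169 CPM on the high-fat diet. The groups did not overlap, and the fit gave -1.69 ± 0.69 with an adjusted p of 0.0808. C6 was called lower by DESeq2 (adjusted p = 0.0482) and when the model held the compared groups alone (0.000532). C9, which lines the pore, also missed the threshold (-0.57 ± 0.22, adjusted p = 0.0579) with 599 to 790 against 413 to 518 CPM, and was called in the same 2 alternatives (0.0318 and 0.00584). Hc, the gene of C5, was at 920 to 1108 CPM against 735 to 822 (-0.34 ± 0.20, adjusted p = 0.209). In all, 26 of the 40 genes had every high-fat library below every normal-diet library and 1 had every one above, where 16.3% and 16.8% of all genes did.

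C3 read 6628, 9045, 6372 and 6236 CPM on the normal diet and 4038, 4649, 4669 and 3869 CPM on the high-fat diet. The groups did not overlap and the fall was -0.72 ± 0.21 (adjusted p = 0.0184). That call was lost without normal-diet library 2 (adjusted p = 0.0587), the library with 9045 CPM, and without high-fat library 4 (0.0554). Upstream of C3, C2 fell by 0.82 on the log2 scale (SE 0.13, adjusted p = 0.000337), from 33.1 to 40 CPM to 18.9 to 21.5 CPM. C1ra, for the protease C1r, fell from 196, 187, 177 and 176 CPM to 109, 111, 116 and 98 CPM (-0.76 ± 0.14, adjusted p = 0.00108), while C1s1, for its partner protease C1s, stood at 427 to 509 and 442 to 519 CPM (0.05 ± 0.09, adjusted p = 0.715). C4b was not called (0.26 ± 0.18, adjusted p = 0.317).

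The mannose-binding lectins went separate ways in their levels. Mbl2 had 272, 246, 262 and 242 CPM on the normal diet and 499, 422, 321 and 316 CPM on the high-fat diet, the only gene of the list with every high-fat library above every normal-diet one, but its difference missed the threshold (0.61 ± 0.41, adjusted p = 0.281). Mbl1 had 271 to 331 and then 165 to 244 CPM (-0.57 ± 0.26, adjusted p = 0.111). Masp2, for the protease that the lectins activate, was called at a small size (-0.28 ± 0.09, adjusted p = 0.0345), and Masp1 was not (-0.18 ± 0.15, adjusted p = 0.384).

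The fibrinogen genes fell together. Fga, for the alpha chain, read 5352, 10170, 4837 and 5607 CPM on the normal diet against 3662, 3486, 3289 and 2828 CPM on the high-fat diet (-0.97 ± 0.26, adjusted p = 0.011). Fgb, for the beta chain, read 5127, 8735, 4590 and 5292 against 3374, 3400, 3009 and 2458 CPM (-0.96 ± 0.26, adjusted p = 0.0114). Fgg, for the gamma chain, read 4470, 7315, 4087 and 4762 against 3021, 2905, 2725 and 2183 CPM (-0.93 ± 0.23, adjusted p = 0.00734). Normal-diet library 2 was the highest for each chain and had the highest summed acute phase transcripts of its group, 15898 CPM against 9310 to 11094 in the other 3. All 3 calls held without it. In that fit, for which counts over all genes are not given, 18 of the 40 genes were called lower and 0 higher. The ratio of Fga to Fgb per unit length was 1.37 ± 0.071 on the normal diet and 1.38 ± 0.065 on the high-fat diet.

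The 3 fibrinogen genes sit side by side on chromosome 3 (GRCm39): Fgg at 82915031 to 82922356 and Fga at 82933383 to 82940934 on the plus strand, and Fgb at 82947448 to 82957170 on the minus strand. Because they moved together, the bases upstream of their starts are shown, from RefSeq on GRCm38.p6 (chr3:83007474-83007723 for Fgg, chr3:83025903-83026075 for Fga and, on the minus strand, chr3:83049864-83050113 for Fgb), 5′ to 3′ on the gene's strand. For Fga the last 77 bases before the RefSeq start are left out, since another annotation counts them as exon. Capitals mark matches to TTNNGCAA or its reverse complement TTGCNNAA, the C/EBP motif, and to GTTAAT or ATTAAC, the HNF1 half-site.
Fgg: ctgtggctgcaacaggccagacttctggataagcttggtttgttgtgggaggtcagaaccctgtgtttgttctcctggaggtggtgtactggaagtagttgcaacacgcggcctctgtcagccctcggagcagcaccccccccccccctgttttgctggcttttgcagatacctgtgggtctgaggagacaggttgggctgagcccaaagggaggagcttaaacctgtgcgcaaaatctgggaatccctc
Fga: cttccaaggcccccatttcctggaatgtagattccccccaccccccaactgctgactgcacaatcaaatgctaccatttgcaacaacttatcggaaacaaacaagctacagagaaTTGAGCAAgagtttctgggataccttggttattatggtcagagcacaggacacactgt
Fgb: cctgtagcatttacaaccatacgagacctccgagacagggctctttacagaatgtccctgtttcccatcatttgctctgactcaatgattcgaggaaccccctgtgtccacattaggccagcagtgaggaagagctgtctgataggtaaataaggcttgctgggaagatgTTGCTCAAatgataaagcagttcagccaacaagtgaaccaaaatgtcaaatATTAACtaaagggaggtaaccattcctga
Fga holds TTGAGCAA at 135 to 128 bases before its start, and Fgb holds TTGCTCAA at 80 to 73 and ATTAAC at 29 to 24 bases before its start. Fga has a further ATTAAC at 43 to 38 bases in the stretch not shown, and neither motif was in the Fgg window. RefSeq windows of 250 bases were at hand for 31 of the 40 genes, as 33 windows. The C/EBP motif was in 27.3% of these and in 9.56% of all 32851 such windows, and the HNF1 half-site in 27.3% and 6.43%. The HNF4A motif CAAAGTCCA or TGGACTTTG was in 0 of 33 and in 0.384% of all windows. A match of letters is not a bound site.

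Of the vitamin K-dependent proteins, F7, F10 and Proc fell. F7, the factor that starts clotting with tissue factor, dropped from 87.9 to 98 CPM to 46.2 to 69.3 (-0.77 ± 0.17, adjusted p = 0.00329). F10, whose active form makes thrombin and whose gene lies 1.5 kb from F7 on chromosome 8, fell from 455 to 554 to 292 to 387 CPM (-0.57 ± 0.12, adjusted p = 0.00227). Proc, for the anticoagulant protein C, fell from 494 to 529 to 317 to 430 CPM (-0.48 ± 0.12, adjusted p = 0.00753). F2 (prothrombin, -0.27 ± 0.15), F9 (-0.11 ± 0.10) and Pros1 (0.15 ± 0.14) did not pass, with adjusted p of 0.184, 0.424 and 0.442. F11, the protease that activates factor IX, fell from 77.6, 62.6, 76.8 and 89.8 CPM to 33.8, 40.4, 43.3 and 35.5 CPM (-1.0 ± 0.27, adjusted p = 0.0109). Plg fell from 2129 to 2476 to 1422 to 1833 CPM (-0.55 ± 0.15, adjusted p = 0.0127).

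Klkb1 (-0.59 ± 0.20, adjusted p = 0.0366) and Serpinf2 (-0.57 ± 0.20, adjusted p = 0.0405) were called lower as well. The other calls were Vtn (-0.45), F12 (-0.43), Serpinc1 (-0.39) and F13b (-0.38), on the log2 scale. Klkb1, Serpinf2, Vtn, F12, Serpinc1, F13b, C3 and Masp2 lost the call when library totals were used without a scaling factor (adjusted p of 0.0551 to 0.736), and Klkb1, Serpinf2, Vtn and Masp2 also lost it with upper-quartile factors. Without a scaling factor the median over all genes moved to 0.24, 12 genes of the list were lower and 1, C4bp, was higher; over all genes the share of calls that were higher was 54.1% as fitted, 68.8% with upper-quartile factors and 88.5% without a factor. Leaving out single libraries ended the calls of Klkb1, Serpinf2, Vtn and Masp2 as well, with adjusted p of up to 0.107, 0.103, 0.143 and 0.107, for at least 5 of the 8 libraries each. A model of the compared groups alone went the other way, with 26 lower, C6, C9, Hc, Mbl1, Serpind1 and Kng1 being added, and 1 higher, Mbl2 (adjusted p = 0.00743). Of all 13306 genes in that model 2034 were lower and 2449 higher. The genes called under every alternative were C1ra, C2, C8a, C8b, Fga, Fgb, Fgg, F7, F10, F11, Proc and Plg, 12 in all.

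Other cell types moved with the diet. Of 9 endothelial markers Kdr and Clec4g were lower and Plvap was higher. The globin genes among 5 red cell markers were higher. Of 12 macrophage markers 9 were higher and 0 lower, with sums of 242 to 338 CPM on the normal diet and 440 to 618 CPM on the high-fat diet, and 5 of 10 markers of stellate cells and fibroblasts were higher (302 to 418 against 437 to 766 CPM). Of 8 hepatocyte markers 4 were lower and 0 higher, with sums of 78082 to 91277 and 52850 to 78627 CPM. Their part in the lower complement and clotting transcripts was not tested.

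**Figure D2:**
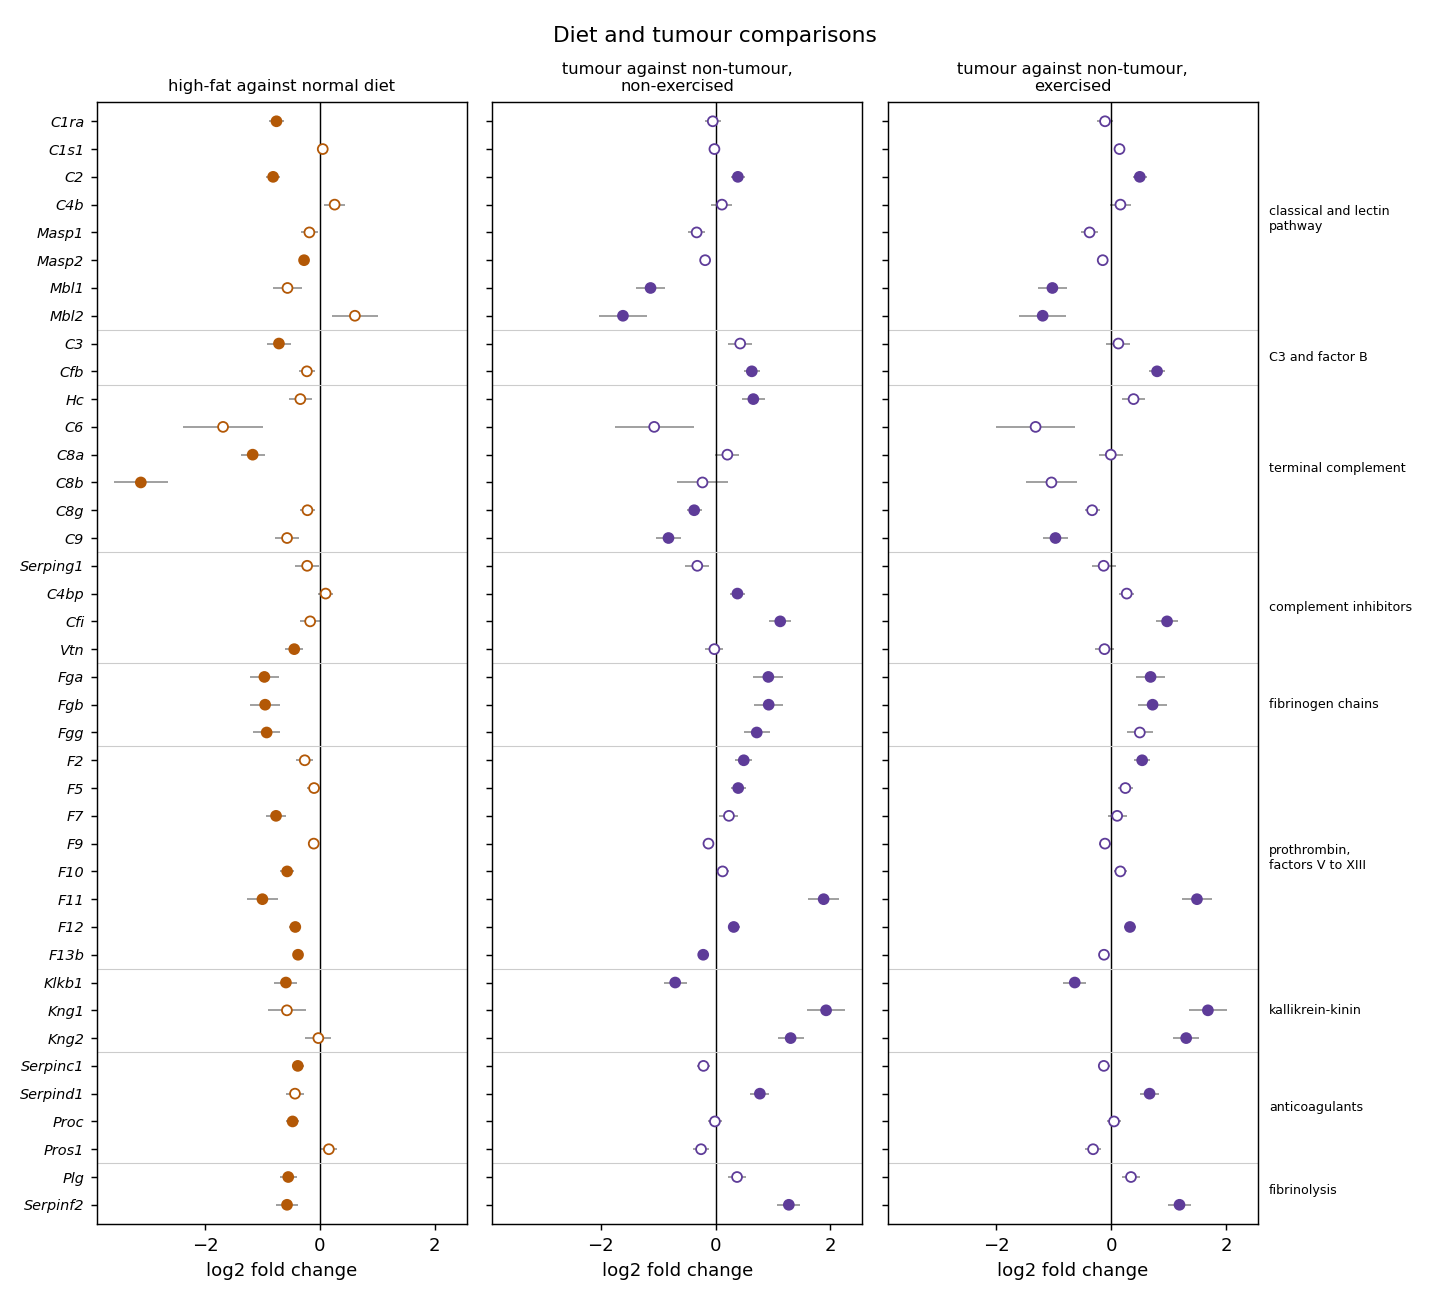
Log2 fold changes (points, with SE) of all 40 genes, ordered by role, for high-fat against normal diet in non-tumour liver of non-exercised mice and for tumour against non-tumour liver in each arm; filled points have an adjusted p under 0.05. In the diet panel all 20 filled points lie below 0, and in the tumour panels 16 and 12 filled points lie above 0 and 6 and 4 below.

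Tumours were compared with non-tumour liver of the same arm on the high-fat diet. Pieces read as coming from 1 mouse were tested here as unpaired. With the mouse as a block, 11 of the calls below were lost in non-exercised mice and 1 in exercised mice. C6 and Masp1 were added as lower in exercised mice, and these genes are named further below. The non-tumour libraries of non-exercised mice serve in the diet, tumour and exercise comparisons alike, so these are not independent of each other. In non-exercised mice 16 genes of the list were higher and 6 lower in tumours, where 18% of all genes were higher and 17.8% lower. In exercised mice 12 were higher and 4 lower, against backgrounds of 18.6% and 16%. Counting the 39 genes that averaged 20 CPM or more, 15 and 11 were higher and 6 and 4 lower, where 17.9%, 16.9%, 27% and 26.2% of all genes at that level were. The list's median log2 fold change was 0.16 and 0.14, beside -0.01 and 0.01 over all genes. Higher calls fell mainly among the 20 coagulation genes, with 11 higher and 2 lower in the non-exercised arm and 9 and 1 in the exercised arm. Of the 20 complement genes 5 were higher and 4 lower in the non-exercised arm and 3 and 3 in the exercised arm. All 12 genes called higher in exercised mice were also called higher in non-exercised mice, and Mbl1, Mbl2, C9 and Klkb1 were lower in both. Tumour libraries all lay above the non-tumour libraries for 13 and 10 genes (16.5% and 14.6% of all genes) and all below for 4 and 4 (18.2% and 13.9%).

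Kng1 gave the largest rise of the 40 genes in both arms, and F11 the next. Kng1, for the precursor of bradykinin, had 1152, 1189, 1019 and 967 CPM in non-tumour liver of non-exercised mice 1 to 4 and 7077, 3219, 1825 and 4321 CPM in their tumours (1.93 ± 0.34, 3.80-fold, adjusted p = 0.0004). In exercised mice it had 1316, 1102, 1215 and 1435 CPM and 6948, 3747, 2089 and 3527 CPM (1.69 ± 0.33, 3.22-fold, adjusted p = 0.00126). Every tumour exceeded every non-tumour library, and mouse 3 had the lowest tumour value in both arms. Kng2, the neighbouring copy 28.4 kb away on chromosome 16, had 195, 197, 179 and 189 against 676, 470, 276 and 461 CPM in non-exercised mice (1.31 ± 0.23, adjusted p = 0.000392). In exercised mice it had 187, 208, 172 and 224 against 694, 522, 296 and 444 CPM (1.31 ± 0.23, adjusted p = 0.000542). The copies are alike enough for reads to be lost or shared between them, so their separate sizes are uncertain.

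F11 and Klkb1, related protease genes that lie next to each other, moved in opposite directions. F11 had 33.8, 40.4, 43.3 and 35.5 CPM in non-tumour liver of non-exercised mice 1 to 4 and 204, 132, 79 and 150 CPM in their tumours (1.88 ± 0.27, 3.69-fold, adjusted p = 0.00013). In exercised mice it had 80.7, 54.5, 53.2 and 32.7 CPM and then 218, 131, 125 and 149 CPM (1.5 ± 0.27, 2.82-fold, adjusted p = 0.000678). Every tumour lay above its own mouse's non-tumour piece. Klkb1, for prekallikrein, which frees bradykinin from kininogen and activates factor XII, had 138, 160, 129 and 116 CPM and then 56.7, 67.2, 110 and 99.7 CPM in non-exercised mice (-0.70 ± 0.20, adjusted p = 0.0114). In exercised mice it had 201, 109, 194 and 145 CPM and then 95.4, 101, 129 and 92.4 CPM (-0.63 ± 0.20, adjusted p = 0.0212), where the groups overlapped. Klkb1 was lower in the tumour of each of the 8 mice, and its tumour values in mouse 3 were the highest of each arm. Without non-exercised tumour 1 its adjusted p was 0.0569, and in the exercised arm leaving out non-tumour library 1 or 3 or tumour 1, 2 or 4 gave 0.0509 to 0.0787.

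F11 occupies 45694211 to 45715068 and Klkb1 45719726 to 45747896 of chromosome 8, both on the minus strand and 4.66 kb apart (GRCm39). The bases before their starts are shown because the transcripts parted in tumours, from RefSeq on GRCm38.p6 (chr8:45262032-45262281 for F11 and chr8:45294860-45295085 for Klkb1, both minus strand, 5′ to 3′ on the gene's strand). The last 24 bases before the Klkb1 start are left out as exon of another annotation. Capitals mark the C/EBP motif as above.
F11: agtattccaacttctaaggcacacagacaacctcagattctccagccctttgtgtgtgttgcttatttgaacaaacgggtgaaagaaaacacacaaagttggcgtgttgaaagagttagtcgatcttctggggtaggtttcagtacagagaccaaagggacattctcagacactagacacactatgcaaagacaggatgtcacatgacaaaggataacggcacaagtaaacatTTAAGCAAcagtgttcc
Klkb1: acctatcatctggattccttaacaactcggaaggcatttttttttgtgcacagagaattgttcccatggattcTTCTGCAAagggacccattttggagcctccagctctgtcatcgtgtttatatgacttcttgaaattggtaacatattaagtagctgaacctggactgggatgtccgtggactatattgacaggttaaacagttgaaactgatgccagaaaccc
F11 holds TTAAGCAA at 17 to 10 bases before its start and Klkb1 holds TTCTGCAA at 177 to 170 bases before its start, and neither window has the HNF1 half-site. The ratio of F11 to Klkb1 per unit length, chosen after its values were seen and not tested, was 0.667 ± 0.100 (SD, n = 4) in non-tumour liver of non-exercised mice, with a range of 0.576 to 0.784, and 4.56 ± 2.84 in their tumours, with a range of 1.68 to 8.41. In exercised mice it ran from 0.528 to 1.18 and then from 2.27 to 5.35. It was 0.874 ± 0.076 on the normal diet. Part of the exon bases of Klkb1 is shared with another gene model, so the ratio is not an absolute level. Whether the share of Klkb1 reads lost this way was alike in all groups was not tested.

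**Figure D3:**
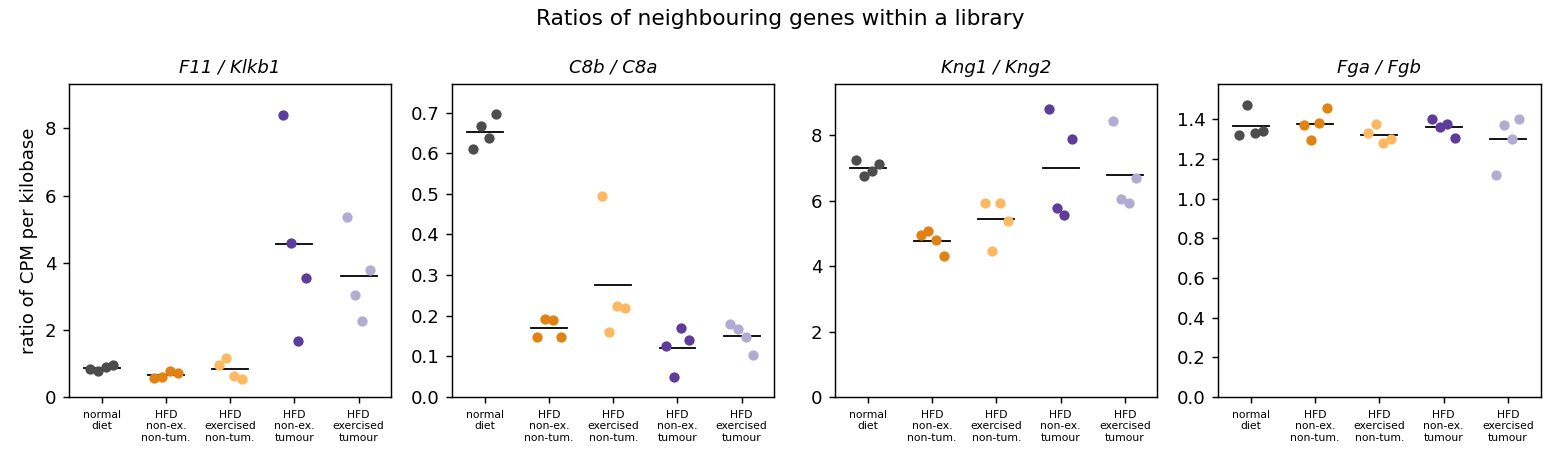
Ratios of CPM per kb in each library (points, linear axis) with the group mean (bar) for F11 to Klkb1, C8b to C8a, Kng1 to Kng2 and Fga to Fgb. F11 to Klkb1 is at least 1.68 in every tumour and at most 1.18 in every other library, C8b to C8a is at least 0.611 on the normal diet and at most 0.495 in every high-fat library, and Fga to Fgb stays between 1.12 and 1.47 in all libraries.

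Of the 4 complement inhibitor genes Cfi was higher in both arms, and C4bp was called in non-exercised mice and not in exercised mice; of the 4 anticoagulant genes Serpind1 was higher in both. The antiplasmin gene rose as well. Serpinf2 had 435, 560, 470 and 425 CPM in non-tumour liver of non-exercised mice and 1511, 1096, 762 and 1211 CPM in their tumours (1.28 ± 0.20, adjusted p = 0.000204), and 555, 473, 551 and 717 against 1732, 1292, 885 and 1334 CPM in exercised mice (1.19 ± 0.20, adjusted p = 0.000424). Cfi, for factor I, which degrades C3b and C4b, had 549, 600, 529 and 518 against 1685, 1111, 808 and 1189 CPM (1.13 ± 0.19, adjusted p = 0.000282). In exercised mice Cfi had 621, 633, 631 and 795 against 1628, 1478, 922 and 1237 CPM (0.97 ± 0.19, adjusted p = 0.000988). The tumour libraries of Serpinf2 and Cfi lay above all non-tumour libraries of their arm. Serpind1, for heparin cofactor II, was at 351 to 500 and 530 to 922 CPM in non-exercised mice (0.77 ± 0.16, adjusted p = 0.00162) and at 448 to 521 and 585 to 900 CPM in exercised mice (0.67 ± 0.16, adjusted p = 0.0048). Antithrombin (Serpinc1), the other main inhibitor of thrombin, was not called, with -0.21 ± 0.11 and -0.13 ± 0.11 (adjusted p = 0.131 and 0.373). Serping1, for the C1 inhibitor, was not called either (-0.32 ± 0.21 and -0.13 ± 0.21), nor were Vtn, Proc and Pros1.

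Fibrinogen was higher in tumours of non-exercised mice for all 3 genes. Fga had 9301, 5437, 4418 and 5935 CPM in tumours of mice 1 to 4, all above the 2828 to 3662 CPM of their non-tumour liver (0.92 ± 0.26, adjusted p = 0.0102). Fgb had 8395, 5056, 4061 and 5740 CPM (0.93 ± 0.26, adjusted p = 0.0094) and Fgg 6459, 3759, 3350 and 4247 CPM (0.72 ± 0.23, adjusted p = 0.0208) in the same tumours. In exercised mice Fga had 3925, 2992, 3695 and 5524 CPM in non-tumour liver and 7286, 6965, 4639 and 7089 CPM in tumours (0.69 ± 0.26, adjusted p = 0.0459). Fgb gave 0.72 ± 0.26 (adjusted p = 0.0358) and Fgg 0.50 ± 0.23, which did not pass (adjusted p = 0.0981). In that arm tumour 3 and non-tumour library 4 overlapped for all 3 chains. The Fga and Fgb calls of exercised mice did not survive leaving out any one of 6 libraries, namely non-tumour 1, 2 or 3 and tumour 1, 2 or 4 (adjusted p of 0.0932 to 0.128 for Fga and 0.0631 to 0.119 for Fgb). Fgg of non-exercised mice lost its call without tumour 1 or non-tumour library 4 (0.0955 and 0.0599).

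C3, which belongs with fibrinogen among acute phase proteins, was not called in tumours. It read 8109, 5365, 5267 and 4448 CPM in tumours of non-exercised mice, from 3869 to 4669 CPM in their non-tumour liver (0.43 ± 0.21, adjusted p = 0.118), and 6066, 5482, 4212 and 6920 CPM against 4910, 3955, 4759 and 7156 CPM in exercised mice (0.13 ± 0.21, adjusted p = 0.673). Cfb rose at a low level, from 6.53 to 8.04 to 9.15 to 14.8 CPM in non-exercised mice (0.63 ± 0.14, adjusted p = 0.00249) and from 5.63 to 6.5 to 8.61 to 11.9 CPM in exercised mice (0.80 ± 0.14, adjusted p = 0.00066). C2 rose from 18.9 to 21.5 to 22.9 to 29.2 CPM (0.39 ± 0.13, adjusted p = 0.022) and from 17.7 to 22 to 23.9 to 38.5 CPM (0.50 ± 0.13, adjusted p = 0.00586). The first of these C2 calls was lost without non-tumour library 2 (0.0564). Cfb and C2 are adjacent and share exon bases with 1 further gene model, so they are not separate evidence.

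The lectins and C9 were lower in tumours. Mbl2 had 499, 422, 321 and 316 CPM in non-tumour liver of non-exercised mice and 54, 46, 262 and 146 CPM in their tumours (-1.61 ± 0.41, 3.06-fold lower, adjusted p = 0.00631). In exercised mice it had 433, 373, 467 and 450 against 122, 149, 309 and 173 CPM (-1.19 ± 0.41, adjusted p = 0.0322). Tumour and non-tumour values did not overlap in either arm, and tumour 3 was the nearest to non-tumour liver in both. Mbl1 had 244, 199, 197 and 165 against 61.3, 68.3, 140 and 97.7 CPM (-1.13 ± 0.26, adjusted p = 0.00286), and in exercised mice 252, 148, 229 and 212 against 62.7, 89.7, 154 and 107 CPM (-1.02 ± 0.26, adjusted p = 0.00607). C9 had 512, 437, 518 and 413 against 252, 209, 386 and 218 CPM (-0.82 ± 0.22, adjusted p = 0.0071). In exercised mice C9 had 775, 396, 594 and 729 against 248, 385, 375 and 264 CPM (-0.97 ± 0.22, adjusted p = 0.00282). Masp1 gave -0.33 ± 0.15 and -0.38 ± 0.15 and was not called (adjusted p = 0.097 and 0.0618). The Mbl2 call of exercised mice was lost when any one of 6 libraries was left out (non-tumour 1, 3 or 4, tumour 1, 2 or 4), at adjusted p of 0.0598 to 0.0983.

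No pore gene other than C9 was called in both arms. C8b, low in high-fat liver, stood at 48.3, 16.1, 72.3 and 47.4 CPM in tumours of non-exercised mice (-0.23 ± 0.44, adjusted p = 0.721) and at 53 to 79 CPM in those of exercised mice (-1.04 ± 0.44, adjusted p = 0.0779). C8a gave 0.21 ± 0.21 and -0.01 ± 0.21. C6 varied widely, with 7.25, 26.7, 135 and 54.3 CPM in tumours of non-exercised mice and 57.7, 28, 172 and 49.7 CPM in those of exercised mice, and it was not called (-1.07 ± 0.69 and -1.32 ± 0.69). Hc rose in non-exercised mice (0.66 ± 0.20, adjusted p = 0.0151), a call lost without tumour 1 (0.0683), and was not called in exercised mice (0.39 ± 0.20, adjusted p = 0.135).

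Among the remaining clotting genes, F2 rose by 0.49 ± 0.15 and 0.54 ± 0.15 (adjusted p = 0.0137 and 0.00857; the first was 0.055 without tumour 1) and F12 by 0.32 ± 0.11 and 0.33 ± 0.11 (adjusted p = 0.0253 and 0.0221). F7, F9, F10, Proc, Pros1 and Plg were not called in tumours of either arm. F12 lost its call without 3 libraries of the non-exercised arm (non-tumour 1 or 3, tumour 1) and without 4 of the exercised arm (non-tumour 2 or 3, tumour 1 or 4), at adjusted p of up to 0.0883. Called in non-exercised mice alone were Fgg, Hc, F5 (0.39), C4bp (0.38), C8g (-0.37) and F13b (-0.22), which does not show a difference between arms. F5, C8g, C4bp and F13b lost that call without 4, 5, 4 and 7 of the 8 libraries, one at a time (adjusted p of up to 0.0968, 0.148, 0.0883 and 0.18). The difference between the tumour effects of the arms, tested as an interaction of exercise and tumour, was called for 0 of the 40 genes and 0% of all genes; at an unadjusted p under 0.05 it was 0 of the 40 and 2.03% of all genes, and DESeq2 called 0.

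Without tumour 1, 10 genes of the list were called higher in non-exercised mice in place of 16. In exercised mice 2 genes in place of 4 were lower without non-tumour library 1 or 3 or tumour 1, 2 or 4, and 7 were lower without tumour 3. Counts over all genes are not given for these fits. A change of calls over all genes can therefore not be told apart from one of the list. With the mouse as a block, 9 genes were higher and 2 lower in non-exercised mice and 11 higher and 6 lower in exercised mice. Over all genes the block gave 1764 higher and 1754 lower of 13813 in non-exercised mice, and 2374 higher and 1890 lower of 13614 in exercised mice. The 11 calls that the block ended in non-exercised mice were those of Mbl2, Fgg, Klkb1, Hc, Cfb, F2, F5, C4bp, C8g, F12 and F13b (adjusted p of 0.0513 to 0.158), and in exercised mice it ended that of F12 (0.078) and added C6 (-1.34, adjusted p = 0.038) and Masp1 (-0.38, adjusted p = 0.0494) as lower. Called higher or lower under every alternative in both arms were Kng1, Kng2, F11, Serpinf2, Cfi and Serpind1, and Mbl1 and C9. Without a scaling factor the median over all genes was -0.11 and -0.12, the share of higher calls over all genes went from 50.3% and 53.8% to 37.7% in both arms, and the list had 12 higher and 8 lower calls in non-exercised mice and 10 and 6 in exercised mice.

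Tumours differed from non-tumour liver in cell type markers too. Of 9 endothelial markers Stab1, Pecam1 and Cdh5 were higher in both arms and Kdr in exercised mice, and none was lower. Of 10 markers of stellate cells and fibroblasts Reln and Acta2 were higher in both arms, and Rgs5 was lower in non-exercised mice. Of 7 cholangiocyte markers 3 were higher in tumours of each arm and 1 and 0 lower, with sums of 63 to 196 against 393 to 1493 CPM in non-exercised mice and of 53 to 134 against 119 to 1470 CPM in exercised mice. Spp1, at a mean of 330 CPM, dominates these sums (3.13 and 3.35). Krt7, Krt19, Epcam and Cftr averaged 0.32 to 1.75 CPM and were not called higher in either arm, and Krt19 was the lower one (-1.12). The sums therefore do not measure the number of cholangiocytes. Of 12 macrophage markers 2 and 3 were lower and 0 higher (sums of 440 to 618 against 191 to 714, and of 487 to 602 against 217 to 453 CPM). Of 8 hepatocyte markers 2 were higher in each arm and 5 and 4 were lower. Alb, the albumin gene, took 4.06 to 7.36% of counts in the 12 non-tumour libraries and 9.05 to 15.9% in tumours. The part of these shifts in the values of complement and clotting genes was not tested.

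Exercise was compared first in non-tumour liver on the high-fat diet, where 0 of the 40 genes were called in either direction (0.0139% of all genes were higher and 0% lower). At an unadjusted p under 0.05, 5 were higher and 0 lower, where 3.99% of all genes were higher. DESeq2 called 0 of the 40, and 91 higher and 16 lower of all 14428 genes. The list's median log2 fold change was 0.24, beside -0.01 over all genes, and 38 of 40 values were positive (48% of all genes). With no scaling factor 32 were positive, with a median of -0.12 over all genes, and when single libraries were left out 37 to 39 were. Other genes of secreted hepatocyte proteins also leaned to positive values, as given below. The smallest p of the list belonged to C8b, at 54.4, 52.5, 70.8 and 37.9 CPM in non-exercised and 279, 39.4, 115 and 103 CPM in exercised mice (1.32 ± 0.45, adjusted p = 0.382). Without exercised library 1, the one with 279 CPM, its difference was 0.68 ± 0.38. C8a (0.49 ± 0.21, adjusted p = 0.546) and F7 (0.36 ± 0.17, adjusted p = 0.584) came next.

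Fibrinogen and C3 showed no call with exercise. Fga gave 0.28 ± 0.26 (adjusted p = 0.842), Fgb 0.34 ± 0.25 (0.78), Fgg 0.26 ± 0.23 (0.831) and C3 0.27 ± 0.21 (0.792), and the groups overlapped for each. Their highest exercised value was in library 4, with 5524 CPM of Fga and 7156 CPM of C3, and the same library had 716 CPM of the acute phase gene Saa1, where the other 7 non-tumour high-fat libraries had 109 to 291 CPM. Groups did not overlap for Cfi and F5, which were higher in all exercised libraries, and for Cfb, which was lower in all (2.54% and 2.27% of all genes higher and lower). Exercised non-tumour library 1 stood apart within its group for C8b, C6 (339 CPM) and F11 (80.7 CPM) and for Hsd3b5, a steroid enzyme gene that it held at 180 CPM while the other 15 high-fat libraries held at most 4.29 CPM and normal-diet livers 160 to 346 CPM.

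In tumours, too, 0 of the 40 genes were called for exercise (0.0208% of all genes higher, 0% lower). At an unadjusted p under 0.05, 5 were higher and 0 lower, against 5.33% of all genes higher. DESeq2 called 0 of the 40, and 61 higher and 18 lower of all 14428 genes. The smallest p was that of F13b, for the carrier subunit of the enzyme that cross-links fibrin, with 153, 154, 159 and 175 CPM in tumours of non-exercised and 185, 203, 176 and 187 CPM in those of exercised mice (0.23 ± 0.08, adjusted p = 0.425). C1s1 (0.20 ± 0.09, adjusted p = 0.547) and Serping1 (0.47 ± 0.21, adjusted p = 0.553) followed. Fga (0.05 ± 0.26), Fgb (0.14 ± 0.25), Fgg (0.04 ± 0.23) and C3 (-0.03 ± 0.21) were near 0, with adjusted p of 0.973, 0.908, 0.973 and 0.981. The list's median was 0.16, beside 0.01 over all genes, with 35 of 40 positive (53% of all genes), and 28 without a scaling factor. F9 and F13b were higher in every exercised tumour than in every non-exercised one (2.27% of all genes), and 0 were lower in every one (1.48%).

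**Figure D4:**
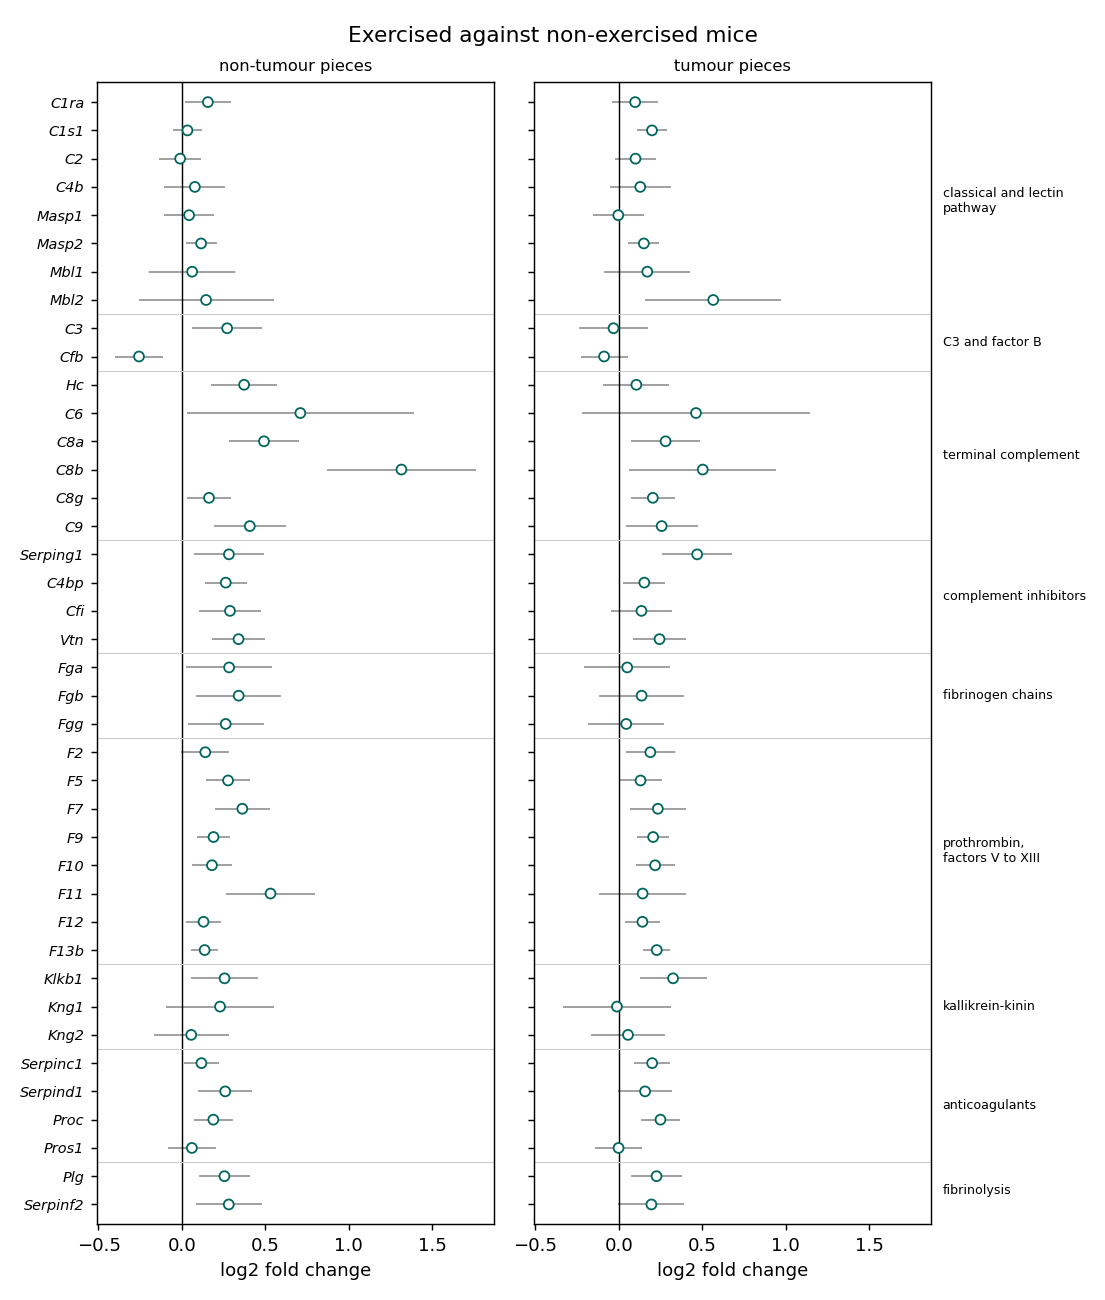
Log2 fold changes (points, with SE) of the 40 genes for exercised against non-exercised mice on the high-fat diet, in non-tumour liver and in tumours; open points did not pass an adjusted p of 0.05. All points are open, 38 of 40 lie above 0 in non-tumour liver and 35 of 40 in tumours, and C8b at 1.32 in non-tumour liver is the highest.

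Related genes outside the list were looked at the same way. Of 28 other complement genes measured, 6 were higher and 6 lower on the high-fat diet, among them C3ar1, a receptor for the C3a fragment (1.77), and C4a, the near-identical copy of C4b (-2.29), and 0 were higher and 6 and 5 lower in tumours, among them Fcna (-1.57 and -1.54), a ficolin. Of 23 other coagulation and fibrinolysis genes, 5 were higher and 3 lower with the diet, among them F13a1 (2.40 ± 0.56), the catalytic subunit that F13b carries, and Serpine2 (-2.80 ± 0.46), and 5 and 6 were higher and 1 and 2 lower in tumours, among them the plasminogen activator Plat (2.54 and 3.25). F13a1 averaged only 0.91 CPM, so its change rests on few counts. Of 4 genes of the vitamin K cycle, 1 was higher and 0 lower with the diet, Nqo1 (1.31 ± 0.38), and 1 was higher and 1 lower in tumours of each arm. The higher one was Ggcx, the carboxylase of the vitamin K-dependent factors (0.56 ± 0.13 and 0.55 ± 0.13), and the lower one Vkorc1, the reductase that recycles vitamin K (-0.45 ± 0.14 and -0.37 ± 0.14).

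Of 17 liver transcription factor and interleukin 6 pathway genes, 4 were lower and 0 higher on the high-fat diet: Hnf4a (-0.65 ± 0.11), Foxa3 (-1.05 ± 0.23), Cebpb (-0.83 ± 0.24) and Il6ra (-0.97 ± 0.31). In tumours 2 of these 17 genes were higher in each arm and 4 and 3 lower, with Cebpb at -1.09 and -0.81. Of 15 other acute phase genes, 3 were higher and 1 lower with the diet, Saa2 at 2.65 ± 0.59 and Lcn2 at 3.56 ± 0.72 among the former, while fibrinogen and C3 fell. In tumours 6 and 3 of the 15 were higher and 2 and 2 lower, with Cp, for ceruloplasmin, at 1.63 and 1.41. Of 15 other genes of secreted hepatocyte proteins, 0 were higher and 4 lower with the diet, and 9 and 8 were higher and 1 and 1 lower in tumours, Ahsg at 2.01 and 1.83. None of these lists had a call for exercise in either tissue or for the interaction.

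In the main edgeR fit C1s1, C4b, Masp1, C6, Serping1, F9 and Pros1 were called in none of these comparisons. Some alternatives did call C6, Masp1 and Pros1 as lower.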

How the data were processed

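RNA of 20 frozen mouse livers or tumours was sequenced after preparation with a stranded mRNA kit, per the labels' protocols. The files deposited hold raw counts, which featureCounts 2.0.5 summed over each gene's exons with the reverse-stranded setting, per the file headers; Trim Galore 0.6.10, STAR 2.7.11a and the build GRCm39 are named in the submitters' processing notes. The headers give no option for multi-mapping or multi-gene reads, so near-identical or same-strand overlapping genes are under-counted. Groups were taken from the sample titles.

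From these counts, genes were filtered with filterByExpr (minimum count 10, minimum total 15), scaled by TMM and tested with edgeR 4.0.16 (quasi-likelihood, robust, 5 group means over 20 libraries, 15 residual degrees of freedom, limma 3.58.1, R 4.3.3), two-sided, with Benjamini-Hochberg adjustment over 14428 genes. A call is an adjusted p under 0.05. The SE is the log2 fold change divided by the root of F. In a library, 1 CPM stands for 15.7 to 21.5 counts, so counting error matters mainly for Cfb. The lowest chi-square per gene between libraries of a group was 9.06, where sampling noise gives 1, so none was taken as deposited more than once. Alternatives were other scaling, no filter or one of 1 CPM in 4 libraries, DESeq2 1.42.0, a block, each library left out, and models of the compared groups alone. The test was tried on simulated data. The promoter windows and exon overlaps came from reference tables, with symbols for 52083 of 55359 identifiers.

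The members, lists, alternatives and naming rule were chosen with earlier results of these data known. Full statistics go to up to 12 called members of largest change per comparison, to the fibrinogen genes and C3, and to up to 3 of lowest p where fewer than 3 were called; of other lists at most 4 called genes of smallest p are named, and a gene of these lists is not reported here. Statistics of further members are given beside these as description, chosen after their values were seen. In tumour comparisons, pieces share an arm and mouse number in the titles and were read as 1 mouse; deviations of same-numbered pieces from their group means correlated at -0.08 to 0.21 in non-exercised and 0.08 to 0.44 in exercised mice.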

Additional observations from a re-analysis of the deposited data

Results flagged for a closer look

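A library was looked at again where its gap to the next value was a larger part of the range of its group of 4 than Dixon's 95% critical value. This held for 10 of the 200 groups of 4 over the 40 genes, and chance gives about 1 in 20. On the normal diet, library 2 had 1112 CPM of C4b (others 738 to 783) and 9045 CPM of C3 (others 6236 to 6629), and library 3 had 542.5 CPM of C4bp (others 593 to 602). In non-tumour liver of non-exercised mice, library 1 had 683.1 CPM of C4bp (others 600.0 to 608). In non-tumour liver of exercised mice, library 4 had 795.4 CPM of Cfi (others 621 to 633), 1738 CPM of F2 (others 1413 to 1454) and 89.08 CPM of Pros1 (others 72.8 to 75.3), and library 3 had 557.9 CPM of F5 (others 588 to 591). In tumours of exercised mice, library 3 had 4639 CPM of Fga (others 6965 to 7286) and 1684 CPM of F2 (others 2311 to 2454).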

How the results depend on the processing

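Counts of called genes of the list moved as follows. Genes higher with the diet went from 0 to 1 without a scaling factor (C4bp) and to 1 both in a fit of only the groups compared and with the title number as a replicate block (Mbl2); genes lower with the diet went from 20 to 12 without a scaling factor. In tumours of non-exercised mice the mouse as a replicate block gave 9 higher and 2 lower in place of 16 and 6 (over all genes 1764 and 1754 of 13813). In tumours of exercised mice DESeq2 gave 7 lower in place of 4 (over all genes 2522 of 14428), and the mouse block gave 6 (1890 of 13614). Leaving out single libraries gave 15 to 21 genes lower and 0 higher with the diet, 10 to 17 higher and 4 to 7 lower in tumours of non-exercised mice, and 9 to 14 higher and 2 to 7 lower in tumours of exercised mice; for exercise and the interaction it gave 0 throughout. Counts over all genes are not given for the fits without a library. Same-numbered libraries of the diet and of the exercise comparison in non-tumour liver correlated at -0.03 to 0.05 and -0.39 to 0.03, with 0 of 4 best with their own number, and in tumours of the exercise arms at 0.03 to 0.57, with 3 of 4. They share only a number. The block left both exercise comparisons at 0 calls, also over all genes. With the diet it gave 24 lower, where 1819 of all 13306 genes were lower and 2250 higher. Of 4160 values of the 40 genes in the 6 comparisons under the alternatives, single libraries left out included, 133 lost the call, 44 gained one and 0 called values reversed; of the rest, 3775 kept direction and side of the threshold and 208 changed sign without a call either way. The causes were not tested.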
